A study of Mus musculus with 53 samples.

Results

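Streptozotocin (STZ) given on top of a high-fat diet (HFD) was examined in the sciatic nerve at 24 weeks of age, by comparing 8 HFD-STZ samples with 7 HFD samples, 15 of the 53 samples of the series. The samples were chosen by their labels alone: HFD, with or without STZ, no dietary reversal (DR), 24 weeks. All were sciatic nerves of male C57BL/6J mice given, from 5 weeks of age, a diet with 60% of its energy from fat. HFD-STZ mice had also been injected with STZ at 12 weeks of age, at 75 mg/kg and, 3 days later, 50 mg/kg. The series further held standard diet (SD) mice, the same models at 16 weeks, and HFD-DR and HFD-STZ-DR mice returned to SD for 8 weeks. The comparison asks how the nerve of a model of type 2 diabetes differs from that of a prediabetic model on the same diet.

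STZ is taken up by the insulin-producing beta cells of the pancreas and kills part of them, so that HFD-STZ mice combine insulin resistance with a poorer insulin supply. It does not act on nerve alone, and every HFD-STZ mouse differs from the HFD mice both by the injections and by the metabolic state that follows. The sciatic nerve is a mixed tissue of axons, Schwann cells, fibroblasts, vessels, macrophages and mast cells, with fat and muscle close by, while the cell bodies of its neurons lie outside it. In such bulk samples, fewer cells of a type and less RNA per cell cannot be told apart.

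Each value is a deposited log2 expression value per gene, and every difference is HFD-STZ minus HFD on that scale, with its standard error (SE). A total of 18121 genes had a mean value over the 15 samples of at least log2 of 10 and no value above 22. Read depth per gene is unknown. The myelin gene Mbp lay between 19.43 and 20.18 in HFD and between 19.28 and 19.93 in HFD-STZ. Of 12 neuronal and axonal transcripts only 5 could be tested. HFD-STZ replicate 7 stood apart: its median correlation with the other 14 samples was 0.939, against 0.977 to 0.987 for the rest, and it alone held 23 of the 25 genes left out for a value above 22. Pirt, left out in this way, was at 53.47 in HFD-STZ replicate 7 and at 7.59 to 7.80 in the other 14. HFD-STZ replicate 7 carried transcripts typical of sensory neurons far above the other samples, such as Trpa1 at 10.33 against 2.03 to 4.18 and Isl1 at 11.31 against 3.23 to 4.77. Several results below are also given without this sample.

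No gene passed an adjusted p-value of 0.05 in limma (0% of 18121 genes), and no adjusted p fell under 0.785. At an unadjusted p under 0.05, 258 genes were higher in HFD-STZ (1.42%) and 756 were lower (4.17%), 5.6% in all. Differences were above 0 for 47.9% of genes, with a median of -0.01, and reached 1 in either direction for 112 genes (0.618%). The genes below are those with the smallest unadjusted p-values and the members of gene lists, and each carries an adjusted p of 0.785 or more unless stated. Leaving out each mouse in turn brought a gene past the adjusted threshold in 2 of 15 cases, Irf7 without HFD replicate 4 and the lincRNA Gm45159 without HFD-STZ replicate 6. A fit over all 8 groups of the series called Cck (adjusted p = 0.0193, limma).

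Among the genes higher in HFD-STZ, Pard6b and Mcat were the 2 whose groups did not overlap, 0.011% of the genes tested. With 6435 ways to split the 15 samples and 18121 genes tested, a few genes without overlap are expected by chance in each direction. Pard6b, a subunit of a complex that sets cell polarity (chr2:168081004-168101203, GRCm38), was at 8.15 to 8.74 (median 8.46) in HFD-STZ and at 7.57 to 8.07 (median 7.93) in HFD. All 8 HFD-STZ samples lay above every HFD sample, while SD samples, at 7.82 to 8.52, spanned both groups. The difference was 0.54 ± 0.11, with an exact permutation p of 0.000311, and stayed between 0.49 and 0.57 when any sample was left out. Mcat, an enzyme of mitochondrial fatty acid synthesis (chr15:83546797-83563787), was at 9.69 to 10.26 (median 9.86) in HFD-STZ and at 9.54 to 9.64 (median 9.60) in HFD, a difference of 0.28 ± 0.08 with an exact permutation p of 0.000466. The HFD-STZ maximum was replicate 7, and the next highest value was 9.94. The 7 HFD values formed a narrow band below the lowest SD value, 9.66. Mcat overlaps Tspo on the opposite strand, and reads of the 2 genes cannot be told apart there.

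Cdh6, a cell adhesion cadherin (chr15:13028701-13173675), was at 6.57 to 7.47 (median 6.99) in HFD-STZ and at 6.00 to 6.73 (median 6.33) in HFD, a difference of 0.64 ± 0.16 with an exact permutation p of 0.00186. The T-box transcription factor Tbx2 (chr11:85832551-85841948) was at 10.05 to 11.00 (median 10.44) against 9.67 to 10.29 (median 9.86), a difference of 0.49 ± 0.13. The groups overlapped, but 6 of 8 HFD-STZ samples exceeded every HFD sample for Cdh6 and 7 of 8 for Tbx2, and the SD medians were 6.79 and 10.37. Cirbp, an RNA-binding protein induced by cold, differed by 0.35 ± 0.09, and 2 of 8 HFD-STZ samples exceeded the HFD range. A further 6 of the 12 genes with the smallest p in this direction (Ifit3b, Tgtp1, Ifit3, Gbp3, Apol9b and Irf7) come from families known to be induced by interferons. The share of such families over all genes was not counted, and Tgtp1 and Apol9b are outside the interferon list used below. Ifit3 and Ifit3b share sequence, so the 6 are not independent.

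On the lower side, groups did not overlap for 4 genes (0.0221%), namely Cck, Klk1, C130026I21Rik and Tspan32, the last pair named after their values were seen. Cck encodes the neuropeptide cholecystokinin (chr9:121489824-121495694). It was at 2.72 to 3.79 (median 3.57) in HFD-STZ, at 3.96 to 5.37 (median 4.39) in HFD and at 3.15 to 4.03 (median 3.89) in SD. Every HFD-STZ sample lay below every HFD sample, and SD samples reached into both groups. The difference was -1.12 ± 0.22, and its exact permutation p of 0.000155 is the smallest that 6435 splits can give. Permutation p-values are not adjusted for the number of genes tested. Klk1, a kallikrein protease (chr7:44225360-44229618), was at 2.87 to 4.82 (median 4.55) against 4.88 to 5.81 (median 5.61), with SD at 3.25 to 5.15 (median 4.36), and differed by -1.15 ± 0.27. Without HFD-STZ replicate 7 the differences were -1.01 for Cck and -0.96 for Klk1. C130026I21Rik differed by -0.78 ± 0.20 and the tetraspanin Tspan32 by -0.21 ± 0.08, with groups that all but touched.

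Nlrp1b, an inflammasome sensor (chr11:71153102-71230733), was at 2.67 to 4.24 (median 3.55) in HFD-STZ and at 4.17 to 5.08 (median 4.49) in HFD, a difference of -1.09 ± 0.23. Themis, needed for T cell development (chr10:28668360-28883818), was at 2.28 to 3.92 (median 2.87) against 3.66 to 4.71 (median 3.97), a difference of -1.13 ± 0.25. Stil, a factor of centriole duplication (chr4:115000159-115043196), was at 4.66 to 5.87 (median 5.15) against 5.55 to 6.68 (median 5.95), a difference of -0.84 ± 0.19. In each of these 3 genes 7 of 8 HFD-STZ samples lay below every HFD sample, and the SD median was below the HFD median. Gm45159, a lincRNA that overlaps Dlg2, was at 2.76 to 5.44 (median 3.10) against 4.51 to 5.41 (median 5.09), and HFD-STZ replicate 6 held the highest of the 15 values. Its difference was -1.51 ± 0.35, and -1.78 without that sample (adjusted p = 0.0358, limma). Ms4a2 is described with the mast cell genes. Arl14epl, Fam186b, Tdrd5, Gm28874 and AC168977.1 completed the 12, with differences from -1.21 to -0.77 and mean values under 5 in both groups.

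**Figure D1:**
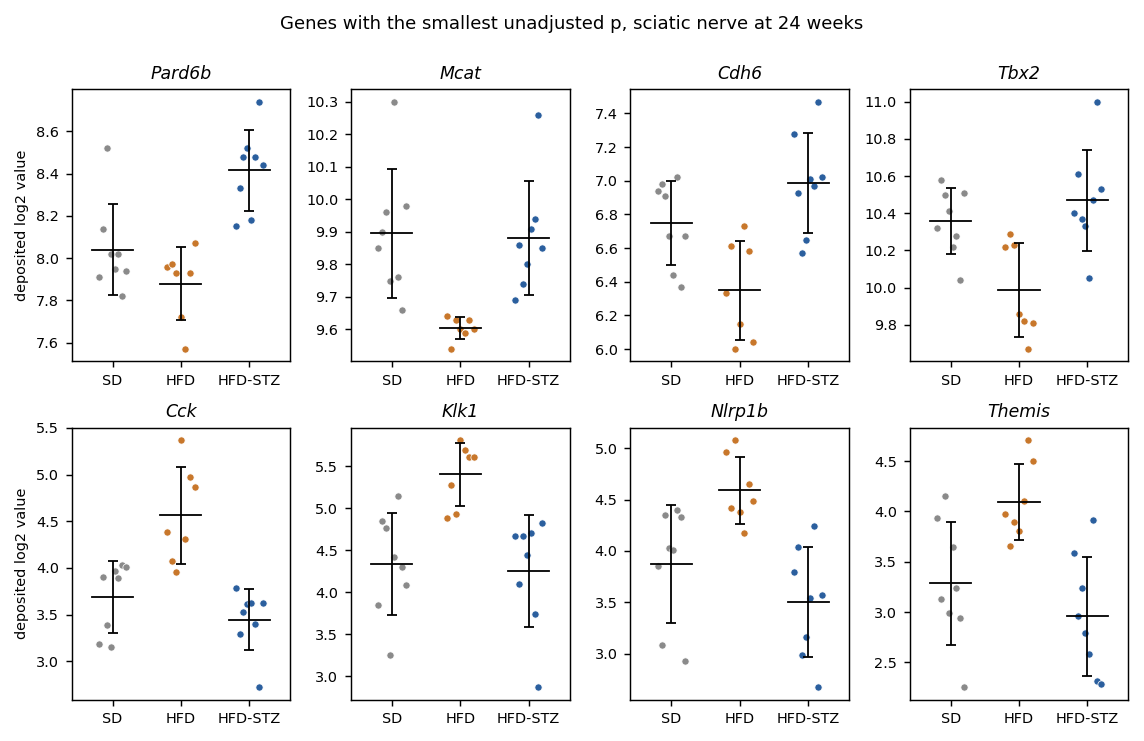
Deposited log2 values of 8 genes in SD (8 mice), HFD (7 mice) and HFD-STZ (8 mice) sciatic nerve at 24 weeks. Points are samples, and lines and bars are the mean and SD. HFD-STZ and HFD values do not overlap for Pard6b, Mcat, Cck and Klk1.

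Interferon-stimulated genes were higher in HFD-STZ as a group. Interferons act through cell surface receptors that activate transcription factors, which bind a short promoter element and switch on antiviral genes. Of 20 listed genes, 18 were higher in HFD-STZ, with a median difference of 0.22 beside -0.01 over all genes. At an unadjusted p under 0.05, 8 of the 20 were higher, beside 1.42% of all genes, and 0 were lower. They include Ifit1, Ifit3, Isg15, Irf7, Usp18, Gbp3 and Cxcl10, and the same 8 were at this level without HFD-STZ replicate 7. None passed after adjustment (adjusted p = 0.785, limma).

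The element, searched as GAAA, any 2 bases and GAAAC or, on the other strand, GTTTC, any 2 bases and TTTC, was found in 225 of 32851 windows of 250 bases before a RefSeq start site (GRCm38.p6), 0.685%. Counted by gene, it was in 111 of 12318 tested genes with a window (0.901%) and in 8 of 15 of the interferon list (53.3%). The list holds known interferon targets, so finding the element there is not evidence about STZ. Of the 8 genes at an unadjusted p under 0.05, 6 had such a window and 5 of these held the element. Their windows are printed because these genes have both the element and a difference at an unadjusted p under 0.05. They run 5′ to 3′ on the gene's strand, with the element in capitals.
Ifit3 (chr19:34583279-34583528, plus strand): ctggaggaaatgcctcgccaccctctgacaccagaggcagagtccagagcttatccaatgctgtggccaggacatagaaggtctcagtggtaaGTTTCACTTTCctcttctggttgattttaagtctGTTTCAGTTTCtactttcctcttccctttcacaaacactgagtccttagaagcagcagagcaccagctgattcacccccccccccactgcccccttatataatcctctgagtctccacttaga
Ifit1 (chr19:34640639-34640888, plus strand): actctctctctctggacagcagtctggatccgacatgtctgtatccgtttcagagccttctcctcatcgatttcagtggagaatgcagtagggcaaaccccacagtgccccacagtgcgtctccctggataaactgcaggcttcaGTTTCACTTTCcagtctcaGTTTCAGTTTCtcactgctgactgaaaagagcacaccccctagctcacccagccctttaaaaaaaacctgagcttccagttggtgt
Gbp3 (chr3:142559794-142560043, plus strand): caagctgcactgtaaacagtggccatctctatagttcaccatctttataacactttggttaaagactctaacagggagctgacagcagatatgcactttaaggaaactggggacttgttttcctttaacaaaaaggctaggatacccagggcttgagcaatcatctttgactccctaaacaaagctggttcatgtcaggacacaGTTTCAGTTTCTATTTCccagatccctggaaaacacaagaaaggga
Isg15 (chr4:156200819-156201068, minus strand): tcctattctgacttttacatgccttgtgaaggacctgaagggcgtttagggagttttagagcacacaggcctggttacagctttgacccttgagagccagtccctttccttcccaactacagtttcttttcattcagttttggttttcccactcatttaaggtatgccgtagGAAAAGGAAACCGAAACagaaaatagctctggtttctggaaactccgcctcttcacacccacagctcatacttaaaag
Cxcl10 (chr5:92348890-92349139, minus strand): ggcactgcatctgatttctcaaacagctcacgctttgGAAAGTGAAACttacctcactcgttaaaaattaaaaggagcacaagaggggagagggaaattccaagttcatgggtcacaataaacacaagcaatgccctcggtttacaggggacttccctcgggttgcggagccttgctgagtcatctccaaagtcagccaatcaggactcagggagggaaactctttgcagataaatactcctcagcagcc
Ifit3, Ifit1, Gbp3 and Isg15 match at 2 places each, overlapping in Gbp3 and Isg15. Cxcl10 matches once, 213 bases before its start, farther out than in the other 4. The window of Irf7 held no match, and Usp18 is named only. A match describes the letters and is not a measured binding site.

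Irf7, which drives interferon production and is itself induced (chr7:141262706-141266481), was at 10.19 to 10.71 (median 10.51) in HFD-STZ and at 9.18 to 11.04 (median 9.53) in HFD. The HFD maximum was replicate 4, above all HFD-STZ samples, and the other 6 HFD samples, at most 9.68, lay below all of them. SD samples were at 9.48 to 10.45 (median 9.86). The difference was 0.75 ± 0.20, with an exact permutation p of 0.00622. Without HFD replicate 4 it was 0.97 ± 0.09 and passed across all genes (adjusted p = 0.000397, limma). Irf7 overlaps Phrf1 on the opposite strand.

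Ifit3, one of the antiviral proteins that bind foreign RNA (chr19:34583531-34588731), was at 11.25 to 12.17 (median 11.79) in HFD-STZ and at 10.92 to 11.59 (median 11.12) in HFD, a difference of 0.54 ± 0.14. Its relative Ifit1 (chr19:34640871-34650009) was at 10.28 to 11.11 (median 10.73) against 9.73 to 10.88 (median 9.93), a difference of 0.60 ± 0.17. The groups overlapped for both, with 5 and 3 of 8 HFD-STZ samples above the HFD range. Ifit3b differed by 0.59 ± 0.15, but 27.4% of the 100-base stretches of its transcript also occur in Ifit3, so the 2 genes are not independent and reads may be split between them.

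Gbp3, a guanylate-binding protein of antimicrobial defence (chr3:142560026-142573209), was at 10.25 to 10.73 (median 10.58) in HFD-STZ and at 9.83 to 10.58 (median 10.12) in HFD, a difference of 0.41 ± 0.11. Of 8 HFD-STZ samples, 4 lay above the HFD range. Isg15, a ubiquitin-like modifier (chr4:156199424-156200818), was at 9.24 to 9.76 (median 9.33) against 8.30 to 9.79 (median 8.72), a difference of 0.53 ± 0.20. Usp18, the protease that removes it (chr6:121245906-121270917), was at 8.84 to 9.69 (median 9.37) against 8.47 to 9.89 (median 8.63), a difference of 0.54 ± 0.20. For both, HFD replicate 4 exceeded all HFD-STZ samples. Cxcl10, a chemokine that attracts T cells (chr5:92346638-92348889), was at 6.93 to 7.82 (median 7.44) against 6.42 to 7.56 (median 6.71), a difference of 0.52 ± 0.21, and overlaps Art3 on the opposite strand.

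Smaller differences above 0 were those of Stat2 (0.22 ± 0.13), Oasl2 (0.24 ± 0.19) and Ifit2 (0.02 ± 0.07). The 2 members below 0 were the chemokine Cxcl9 (-0.30 ± 0.44) and the ubiquitin-like Ubd (-1.16 ± 0.67), which is also a diet-response gene. Outside the list, the GTPase Tgtp1 differed by 0.49 ± 0.13 and the apolipoprotein Apol9b by 0.82 ± 0.22, although 83.3% of the stretches of Tgtp1 are shared, mostly with Tgtp2, and 34.9% of those of Apol9b with Apol9a. The mean over the 20 genes was 8.74 to 9.47 (median 9.17) in HFD-STZ, 8.64 to 9.64 (median 8.83) in HFD, with replicate 4 at the top, and 8.46 to 9.12 (median 8.72) in SD. This mean includes Ubd, at 3.95 to 5.26 in SD and 7.04 to 10.19 in HFD. Over the list, HFD minus SD had a median of 0.00, with 10 genes higher and 10 lower. For Ifit1, Ifit3, Isg15, Irf7, Usp18, Gbp3 and Cxcl10 the SD median lay between the HFD and HFD-STZ medians. Tgtp1 was at 6.93 to 7.73 in SD and at 6.83 to 7.24 in HFD-STZ. Without HFD replicate 4, 10 of 20 genes were higher at an unadjusted p under 0.05 and the median was 0.33. Macrophage markers were on the other side, 11 of 12 being lower, with a median of -0.35, and of -0.18 without HFD replicate 4, and none at p under 0.05 in either case.

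**Figure D2:**
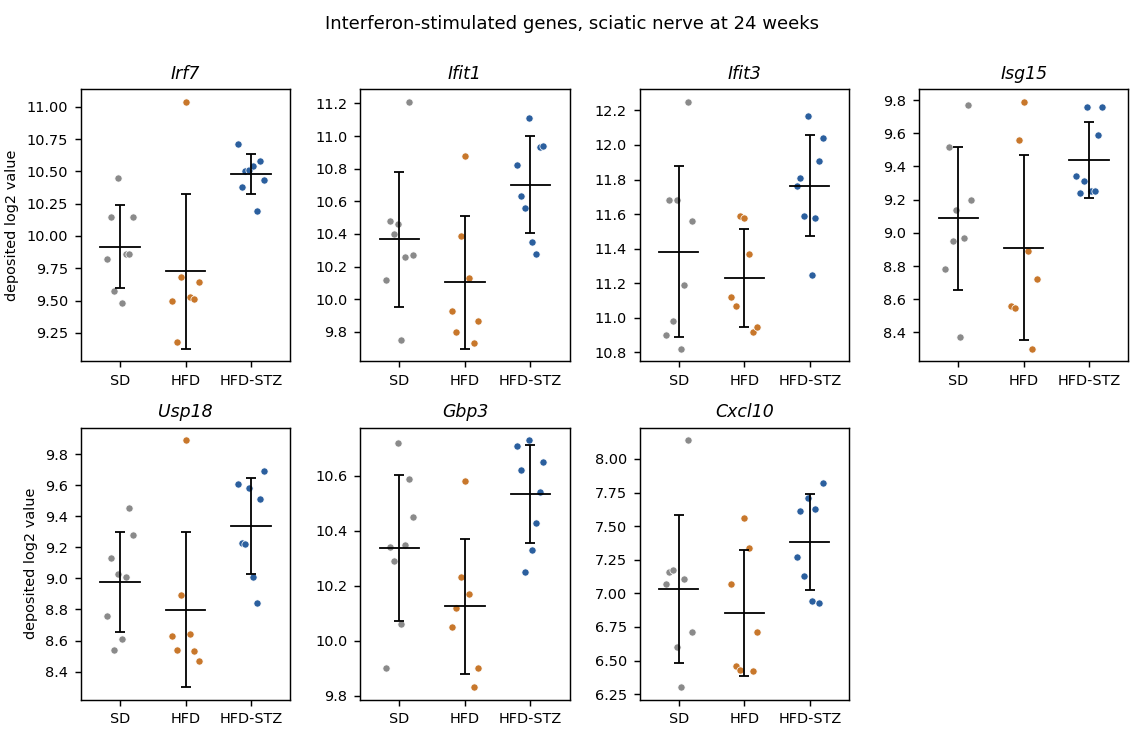
Deposited log2 values of 7 interferon-stimulated genes with an unadjusted p under 0.05, in SD, HFD and HFD-STZ nerve at 24 weeks. Points are samples, and lines and bars are the mean and SD. One HFD sample, replicate 4, lies far above the other HFD samples for Irf7, at 11.04, and for Usp18, at 9.89.

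Mast cell genes were lower in HFD-STZ. Mast cells reside in the connective tissue of the nerve and hold granules of histamine and proteases, which they release when IgE bound to their surface is cross-linked. All 8 listed markers were lower, with a median of -0.76, and 6 of 8 were lower at an unadjusted p under 0.05, beside 4.17% of all genes. Of the granule proteases, Cpa3 (chr3:20215620-20242181) was at 7.74 to 10.04 (median 8.72) in HFD-STZ and at 8.83 to 10.51 (median 9.78) in HFD, a difference of -0.99 ± 0.32 with an exact permutation p of 0.0169. Mcpt4 (chr14:56059629-56062313) was at 7.30 to 9.77 (median 8.47) against 8.69 to 10.14 (median 9.39), a difference of -0.83 ± 0.32. In each, 4 of 8 HFD-STZ samples lay below every HFD sample and the others within the HFD range. Tpsb2, a tryptase, differed by -0.67 ± 0.32, and the chymase Cma1 by -0.68 ± 0.33 (unadjusted p = 0.0559, limma).

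The listed chains of the IgE receptor, Fcer1a and Ms4a2, had lower levels. Fcer1a, the subunit that binds IgE (chr1:173221284-173227214), was at 4.19 to 6.33 (median 4.98) in HFD-STZ and at 5.56 to 6.59 (median 5.87) in HFD, a difference of -0.95 ± 0.27, with 7 of 8 HFD-STZ samples below the HFD range. Ms4a2, the beta chain (chr19:11615523-11623719), was at 3.86 to 5.76 (median 4.92) against 5.08 to 6.23 (median 5.98), a difference of -1.02 ± 0.25, with 5 of 8 below. Hdc, which makes histamine, was at 4.25 to 6.12 (median 5.77) against 5.82 to 7.09 (median 6.22), a difference of -0.69 ± 0.26. Kit, the receptor through which mast cells survive and which other cells also carry, differed by -0.25 ± 0.26. The mean over the 8 markers was 6.90 to 8.45 (median 7.50) in HFD-STZ, 7.65 to 8.72 (median 8.33) in HFD and 7.65 to 8.64 (median 8.12) in SD. Its median was 7.16 in HFD and 7.81 in HFD-STZ at 16 weeks, and 7.49 in HFD-DR and 7.74 in HFD-STZ-DR. A level below that of HFD at 24 weeks was thus not particular to mice given STZ. Without HFD-STZ replicate 7 the median difference was -0.60, again with 6 of 8 at p under 0.05. Leaving out any sample left 5 to 7 of 8, and the fit over all 8 groups left 3.

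Of 11 lymphocyte markers tested, 9 were lower, with a median of -0.53, and of -0.27 without HFD replicate 4. At p under 0.05, 2 were lower, beside 4.17% of all genes, among them the B cell gene Ms4a1 (-1.07 ± 0.37), and the T cell receptor component Cd3e differed by -0.13 ± 0.28. All 10 blood cell markers were lower, with a median of -0.99. S100a8, a calcium-binding protein of neutrophils, was the one at p under 0.05: it was at 3.84 to 8.61 (median 5.29) in HFD-STZ, at 6.22 to 10.88 (median 6.83) in HFD and at 3.54 to 8.42 (median 5.23) in SD. The haemoglobin genes Hba-a1 and Hbb-bt differed by -0.89 ± 0.62 and -1.07 ± 0.67. The mean of the blood markers was 6.12 to 9.33 (median 7.12) in HFD-STZ and 6.69 to 11.31 (median 8.07) in HFD, and its part in the values of immune cell genes was not tested.

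Of 20 cell cycle genes 18 were lower, with a median of -0.29, and 4 were lower at an unadjusted p under 0.05, beside 4.17% of all genes. These were Cdk1 (-0.69 ± 0.27) and Aurkb (-0.65 ± 0.30), kinases of mitosis, the cyclin Ccnb1 (-0.77 ± 0.32) and the topoisomerase Top2a (-0.89 ± 0.42). Top2a was at 4.71 to 7.14 (median 6.76) in HFD-STZ, at 6.03 to 9.06 (median 7.33) in HFD and at 6.25 to 7.65 (median 6.64) in SD, so the groups overlapped widely. The HFD maximum was again replicate 4. Without it, 0 of the 20 were at p under 0.05 and the median was -0.12. The count was 1 without HFD replicate 6 or 7, and 2 without HFD-STZ replicate 6, 7 or 8. The replication genes Mcm3 (0.10 ± 0.10) and Pcna (0.02 ± 0.07) were the 2 not lower.

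**Figure D3:**
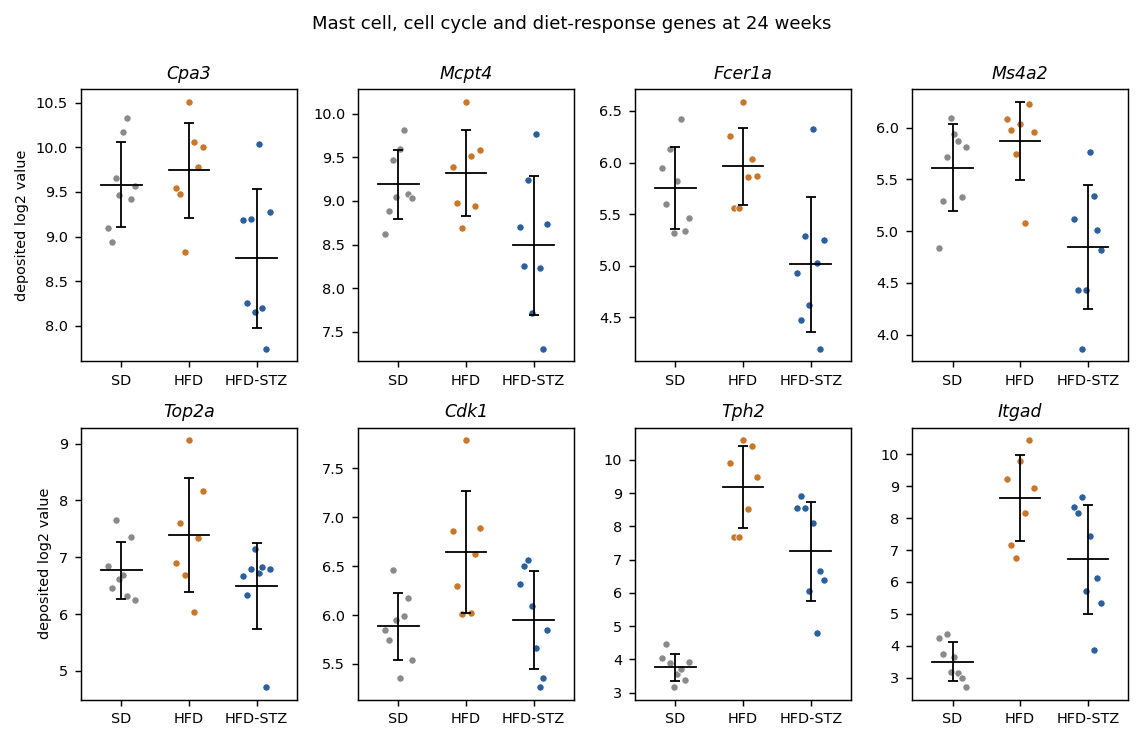
Deposited log2 values of 4 mast cell genes (Cpa3, Mcpt4, Fcer1a and Ms4a2), 2 cell cycle genes (Top2a and Cdk1) and 2 diet-response genes (Tph2 and Itgad) in SD, HFD and HFD-STZ nerve at 24 weeks. Points are samples, and lines and bars are the mean and SD. For Tph2, HFD-STZ values run from 4.78 to 8.91, above all SD values.

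The genes the study named for its diet response were compared next. The study selected them on these same samples, so their direction is not independent evidence. Of 24 genes, 23 could be tested, since Pirt held a value above 22, and 22 were lower in HFD-STZ than in HFD, with a median of -0.59 (-0.35 without HFD-STZ replicate 7 and -0.37 without HFD replicate 4, and -0.81 to -0.22 on leaving out any 1 sample). At an unadjusted p under 0.05, 2 of 23 were lower, 8.7% beside 4.17% of all genes. Tph2, an enzyme that limits serotonin synthesis in neurons (chr10:115078641-115185022), was at 4.78 to 8.91 (median 7.38) in HFD-STZ, at 7.67 to 10.59 (median 9.47) in HFD and at 3.16 to 4.45 (median 3.80) in SD. Itgad, an integrin subunit of macrophages (chr7:128154376-128223816), was at 3.85 to 8.67 (median 6.78), at 6.76 to 10.45 (median 8.94) and at 2.69 to 4.37 (median 3.41). For each, 4 of 8 HFD-STZ samples lay below every HFD sample, and the lowest Itgad value in HFD-STZ was within the SD range. The differences were -1.93 ± 0.64 and -1.93 ± 0.73, with exact permutation p-values of 0.0177 and 0.0329.

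Other members spread widely within each group. The macrophage metalloprotease Mmp12 was at 6.44 to 11.21 (median 8.94) in HFD-STZ and at 9.44 to 11.19 (median 10.30) in HFD, a difference of -1.35 ± 0.67, with 5 HFD-STZ samples below the HFD range and 1 above it. Leptin (Lep), the satiety hormone of fat cells, was at 9.82 to 14.19 (median 12.98) against 11.52 to 15.09 (median 13.75), a difference of -0.79 ± 0.66. The choline transporter Slc5a7 differed by -0.59 ± 0.64, the interleukin-1 receptor antagonist Il1rn by -0.93 ± 0.49 and the acute phase protein Saa3 by -1.04 ± 0.62. Among lipid handling genes, the lipase Lipf differed by -0.64 ± 0.62, Dgat2, an enzyme of triglyceride synthesis, by -0.54 ± 0.50, Cd36 by -0.32 ± 0.52, Lpl by -0.28 ± 0.58 and Fabp4 by -0.16 ± 0.54. Nnat, a small membrane proteolipid, was the one member above 0 (0.80 ± 0.51).

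Fat varied between samples: the mean of 12 adipocyte markers was 10.75 to 13.35 (median 12.78) in HFD-STZ and 11.08 to 13.49 (median 12.46) in HFD, and the median difference of the 12 was -0.06. With this mean as a covariate, 15 of the 20 tested diet-response genes that are not adipocyte markers were lower at an unadjusted p under 0.05, beside 6.75% of all genes in that fit, and 1 was higher, beside 2.76%. Tph2 then differed by -1.91 ± 0.32, Nnat by 0.81 ± 0.12 and Dgat2 by -0.52 ± 0.09. The smallest adjusted p was 0.0645, for Nnat, and Tph2 and Dgat2 had 0.0956 (limma). The adipocyte gene Cfd, complement factor D, was the 1 of the 12 markers at an unadjusted p under 0.05. It was at 12.16 to 15.27 (median 14.91) in HFD-STZ, at 12.02 to 14.66 (median 13.21) in HFD and at 13.27 to 16.10 (median 15.26) in SD. Its difference was 1.20 ± 0.49. Cfd is itself part of the covariate, with which it differed by 1.22 ± 0.20. In that fit 4 of the 12 markers were lower and 2 higher at this level. These include Lep (-0.77 ± 0.16) and Retn (0.47 ± 0.10). The adipocyte hormone Adipoq differed by 0.02 ± 0.51 without the covariate.

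Lists of stromal cells were lower by their medians. Of 24 collagen and matrix genes, 23 were lower, with a median of -0.27, and Col5a2 (-0.40 ± 0.18) and Lox (-0.29 ± 0.12), a collagen and an enzyme that cross-links collagen, were at p under 0.05. Without HFD-STZ replicate 7 the median was -0.14 and the count 0, and with the adipocyte covariate 9 were at p under 0.05. All 12 fibroblast and perineurial markers were lower, with a median of -0.32, and -0.16 without that sample, none at p under 0.05. The 13 mitochondrially encoded genes were lower as well, with a median of -0.24 and none at p under 0.05. Of 12 endothelial and pericyte markers 8 were higher and 4 lower, with a median of 0.04. The endothelial genes Egfl7 (0.26 ± 0.09) and Cldn5 (0.26 ± 0.12) were at p under 0.05, beside 1.42% of all genes in this direction, while the endothelial cadherin Cdh5 differed by -0.41 ± 0.26 and the transporter Abcb1a by -0.28 ± 0.15.

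**Figure D4:**
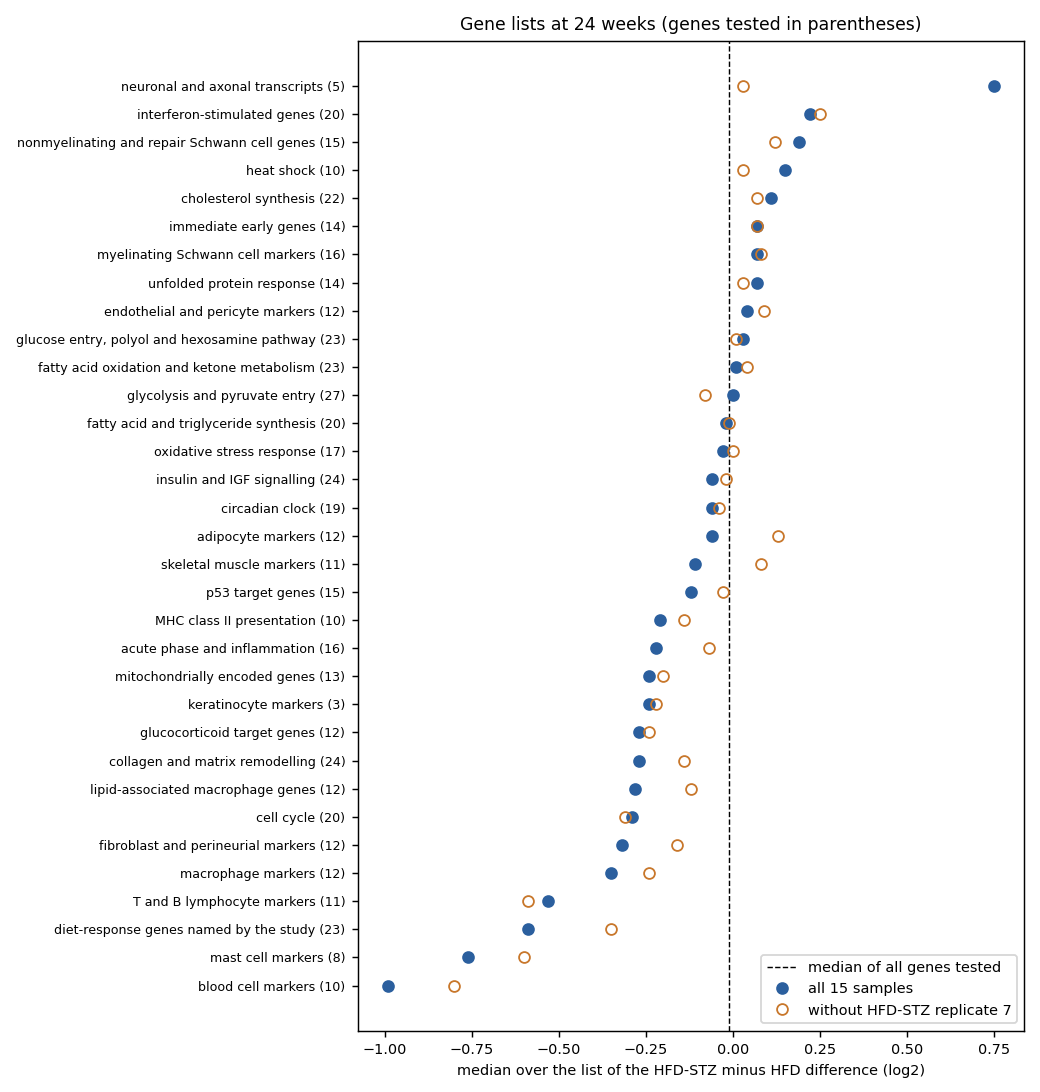
Median HFD-STZ minus HFD difference (log2) of each gene list at 24 weeks, with all 15 samples and without HFD-STZ replicate 7, beside the median of all genes tested (dashed line). Blood cell (-0.99) and mast cell (-0.76) markers are lowest, and the neuronal median of 0.75 becomes 0.03 without the sample.

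Schwann cells wrap axons in myelin and, after injury, turn into repair cells. None of 16 myelinating Schwann cell markers was at p under 0.05, and 12 were higher, with a median of 0.07. The 95% intervals of all 16 lay between -0.49 and 0.52. The myelin protein Mbp differed by -0.05 ± 0.17, and Egr2, the transcription factor of myelination, by 0.24 ± 0.13. Of 15 non-myelinating and repair Schwann cell genes, 11 were higher, with a median of 0.19, and of 0.12 without HFD-STZ replicate 7. Jun, which drives the repair state (chr4:95049034-95052222), was at 11.60 to 12.35 (median 12.07) in HFD-STZ, at 11.55 to 12.08 (median 11.77) in HFD and at 11.94 to 12.69 (median 12.32) in SD, a difference of 0.26 ± 0.11 (unadjusted p = 0.0266, limma). Runx2, a transcription factor on the same list, differed by -0.41 ± 0.16.

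Glucose handling genes were examined because the study reports higher fasting blood glucose in HFD-STZ than in HFD mice. Of 23 genes of glucose entry and the polyol and hexosamine pathways, 12 were higher and 11 lower, with a median of 0.03 and none at p under 0.05. Akr1b3, the aldose reductase that turns glucose into sorbitol, was at 12.48 to 13.08 (median 12.79) in HFD-STZ and at 12.51 to 13.10 (median 12.84) in HFD, a difference of -0.04 with a 95% interval from -0.26 to 0.18. Sord, which oxidises sorbitol, differed by 0.13 (-0.02 to 0.28), and the glucose transporter Slc2a1 by -0.23 (-0.60 to 0.13). All 23 intervals lay within 1 of 0, and 16 of them within 0.5. None of 24 insulin and IGF signalling genes was at p under 0.05, and the insulin receptor Insr differed by -0.24 (-0.63 to 0.15). Of 27 glycolysis genes 1 was, the pyruvate dehydrogenase kinase Pdk1 (-0.32 ± 0.15). Without HFD-STZ replicate 7 the glycolysis count was 0.

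In lipid metabolism, the regulator Srebf1 was at 12.76 to 13.01 (median 12.83) in HFD-STZ and at 12.29 to 12.83 (median 12.65) in HFD, a difference of 0.22 ± 0.07 with an exact permutation p of 0.0014, and 4 of 8 HFD-STZ samples exceeded the HFD range. Me1, which supplies NADPH for fatty acid synthesis, differed by -0.19 ± 0.08. Of 20 fatty acid and triglyceride synthesis genes 7 were higher and 13 lower, with a median of -0.02. At p under 0.05, 1 of the 20 was higher and 1 lower, and 1 and 0 without HFD-STZ replicate 7. Of 22 cholesterol synthesis genes 18 were higher, with a median of 0.11, and 1 was at p under 0.05. Without HFD-STZ replicate 7 the median was 0.07 and the count 0. Bdh1, an enzyme of ketone metabolism, differed by 0.76 ± 0.31. It was the 1 of 23 fatty acid oxidation and ketone genes at p under 0.05, with a list median of 0.01. Without HFD-STZ replicate 7 this count was 0. The p53 targets Gdf15 and Trp53inp1 differed by -0.68 ± 0.24 and -0.38 ± 0.13, and the glucocorticoid targets Zbtb16 and Fkbp5 by -0.67 ± 0.24 and -0.51 ± 0.22. These were the 2 of 15 p53 targets and 2 of 12 glucocorticoid targets at p under 0.05, beside 4.17% of all genes lower. The list medians were -0.12, with 4 of 15 higher, and -0.27, with 2 of 12 higher. The heat shock protein Hspa1a differed by 0.18 ± 0.08, with 48.6% of its stretches shared, mainly with Hspa1b. Hspa1a was the 1 of 10 heat shock genes at p under 0.05, beside 1.42% of all genes higher. The median of the 10 was 0.15, and 0.03 without HFD-STZ replicate 7.

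Other pairs of groups in the series differ by STZ and share no samples with the comparison at 24 weeks: HFD-STZ and HFD at 16 weeks, with 5 and 7 mice, and HFD-STZ-DR and HFD-DR at 24 weeks, with 6 and 7 mice. Neither had a gene past the adjusted threshold in limma, 0% of 18206 and of 18192 genes. At 16 weeks 1.99% of genes were higher and 2.89% lower at an unadjusted p under 0.05, and after reversal 1.48% and 2.1%. Interferon-stimulated genes had medians of 0.00 at 16 weeks and -0.03 after reversal, with 0 of 20 higher and 2 lower at p under 0.05 in each. Mast cell markers had medians of -0.09 and -0.04, with 0 of 8 at p under 0.05 in either. Diet-response genes had medians of -1.52 at 16 weeks, with 16 of 23 lower at p under 0.05, and -0.91 after reversal, with 5 of 21. Adipocyte markers had medians of -1.08 and -0.88 in those pairs, and their part in the diet-response values was not tested. Cholesterol synthesis genes were all 22 higher after reversal, with a median of 0.21 and 10 at p under 0.05.

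**Figure D5:**
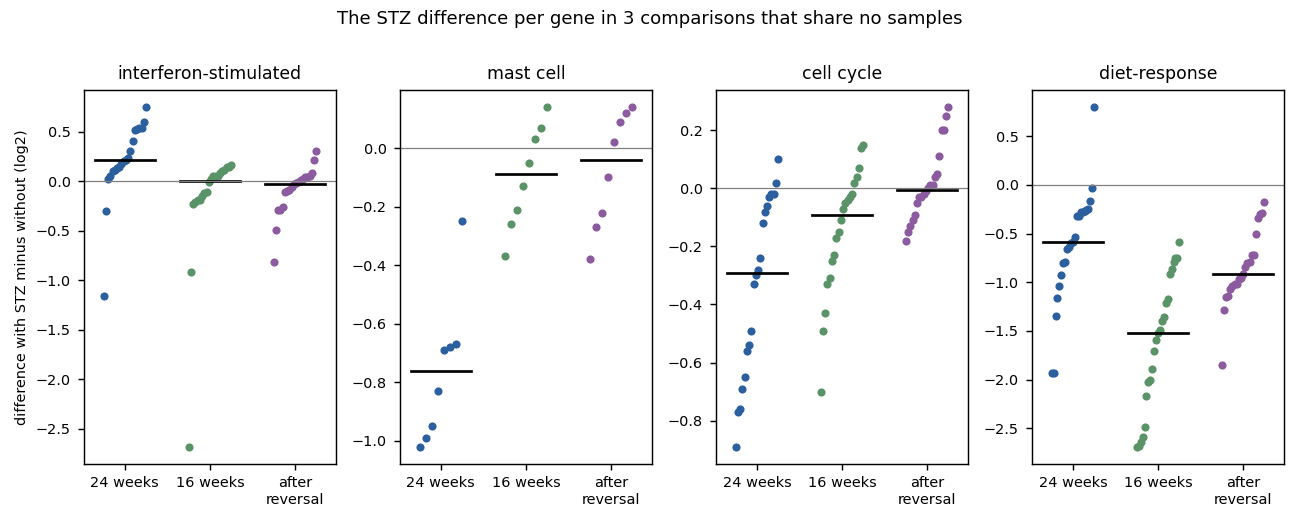
Difference with STZ minus without STZ (log2) for each gene of 4 lists, in HFD mice at 24 weeks, in HFD mice at 16 weeks and in mice after dietary reversal. Points are genes and lines their medians. Interferon-stimulated genes have medians of 0.22, 0.00 and -0.03, and mast cell markers of -0.76, -0.09 and -0.04.

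Whether the STZ difference itself changed was tested by interactions over the 4 groups of each pair of comparisons, which use the 15 samples again. No gene passed the adjusted threshold in limma, 0% of 18159 genes for age and of 18172 for reversal. For age 1.02% of genes had a positive and 2.26% a negative interaction at an unadjusted p under 0.05, and for reversal 0.699% and 1.01%. In the interferon list 5 of 20 genes were positive at this level for age and 5 for reversal, and in the mast cell list 2 of 8 were negative for each. Irf7 had an age interaction of 0.70 ± 0.25 (adjusted p = 0.876, limma), and of 0.92 without HFD replicate 4 (adjusted p = 0.00903). Ifit1 had one of 0.71 ± 0.24 and Fcer1a of -1.09 ± 0.42. Fam186b, Nlrp1b and Prdm15 had the smallest p for age, with -1.26 ± 0.29, -1.34 ± 0.37 and -0.45 ± 0.12. For reversal these were Cck, with -1.26 ± 0.31, Apol10b, an apolipoprotein L, with 0.72 ± 0.21, and Jun. Jun differed by 0.26 between HFD-STZ and HFD and by -0.24 between HFD-STZ-DR and HFD-DR, an interaction of 0.50 ± 0.14 (unadjusted p = 0.00114, adjusted p = 1, limma).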

How the data were processed

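RNA of sciatic nerves was sequenced, and 15 samples, each a separate library, were compared. The authors deposited 1 log2 expression value per gene and sample. Per the labels, the submitters' processing notes name HISAT2, featureCounts, DESeq2 and mm10, without versions; the transformation to log2 is not given in the sources used here. The deposited log2 values are neither counts nor FPKM, so the depth per sample is unknown, and the number of mice sets the precision. The labels and the study's methods name different library kits, and the methods describe libraries without strand.

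Of 49568 genes, those whose mean over the 15 samples reached log2 of 10 were kept, 25 genes with a value above 22 were dropped, and 18121 were tested with limma 3.58.1 (R 4.3.3, empirical Bayes with a trend, Benjamini-Hochberg adjustment over all genes), with only these groups in the fit. Permutation tests were exact and two-sided over 6435 splits. The method was tested on simulated data with independent noise per gene and no outlying sample. That setting differs from these samples, so it does not give the size of difference they could show. Nothing in the labels says how animals relate, so p-values measure the spread between samples. Fits of the 16-week and reversal pairs and of the interactions were made alike. Numbers and tables were made with Python 3.11.15, numpy 2.4.6, pandas 2.3.3, scipy 1.17.1 and matplotlib 3.10.9.

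Genes are named if among the 12 smallest p in a direction, called in any alternative, a list member at an unadjusted p under 0.05, a diet-response gene, or among the 3 smallest p of an interaction; C130026I21Rik, Tspan32 and further list members were named after their values were seen. Some genes that meet this rule are not reported here. Groups, gene lists and tests were chosen with earlier results of these data known. Locations are from GENCODE M21 (GRCm38), promoters from RefSeq.

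Runs of consecutive title numbers were checked as pairs: correlations of HFD and HFD-STZ deviations ran from -0.218 to 0.345 over 7 runs, so the numbers were not taken to pair samples. Alternatives tried were other filters, all 8 groups in 1 fit, a run covariate or block, other variance priors, centring, marker scores as covariates and leaving out each sample.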

Additional observations from a re-analysis of the deposited data

Results flagged for a closer look

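A single sample lay far from the rest of its group, by Dixon's test, for 9 of the values checked. Chance flags about 1 in 20 groups, but the number checked is not given, so the 9 cannot be set against it. The 9 do not cover every gene named above. HFD-STZ replicate 7 also lay far below the rest of its group for Top2a (4.71, the next being 6.33), Hdc (4.25 and 5.39), Col5a2 (11.51 and 12.29) and Trp53inp1 (10.13 and 10.71). The following are the 9. HFD replicate 4 was the highest of 7 HFD samples for Irf7 (11.04), Usp18 (9.89) and the mean of the interferon-stimulated genes (9.64). The difference of Irf7 passed the adjusted threshold without it. HFD-STZ replicate 7 was the highest of 8 for Mcat (10.26) and for the mean of the neuronal and axonal transcripts (13.18), and the lowest for Cck (2.72) and for the median correlation with the other 14 samples (0.9385). HFD-STZ replicate 6 was the highest for Gm45159 (5.44), which passed the adjusted threshold without it. HFD replicate 5 was the lowest for Ms4a2 (5.08). Among the genes left out of every test for a value above 22, HFD-STZ replicate 7 held 23 and HFD replicate 1 held 2, and 0 were held by the other 13 samples.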

How the results depend on the processing

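The comparison gave 0 genes past the adjusted threshold. Without the filter on low values it gave 4 (Trbv26, Gm6677, Olfr52 and Gm9023, all with low values), over all 8 groups 1 (Cck), with the run covariate added 2 (Cck and Pard6b), and on leaving out 1 sample 0 to 1 (Irf7 without HFD replicate 4, Gm45159 without HFD-STZ replicate 6). The 1014 genes at an unadjusted p under 0.05 became 5612 without the filter, of 47363 tested, 1563 over all 8 groups, 1894 with the run covariate, 1724 with the adipocyte score, 1737 with both marker scores, 691 with the filter in every sample, and 752 (without HFD replicate 6) to 1796 (without HFD-STZ replicate 1) on leaving out 1 sample. Why these counts differ was not tested. The split of 258 higher and 756 lower was 291 and 5321 without the filter, 260 and 431 with the filter in every sample, and 188 and 697 with each sample centred on its median. The replicate block by run of title numbers, which matched only 1 of 7 runs best to each other, gave 0 genes past the adjusted threshold and 1479 at an unadjusted p under 0.05. Leaving out 1 sample left 7 to 10 interferon-stimulated genes (8 with all samples), 5 to 7 mast cell markers (6) and 0 to 6 cell cycle genes (4). The mast cell count was 3 over all 8 groups, and the cell cycle count 2 with the muscle score. The median of the neuronal transcripts was 5.60 when genes above 22 were kept. The age interaction gave 2 genes without the filter (Gm6677 and Trbv26) and 0 to 1 on leaving out 1 sample (Irf7 without HFD replicate 4), an alternative chosen after seeing the data. Of 83 named genes tested, 4 changed sign in some of 27 alternatives (Sez6l, Tshr, Cidec and Fabp4), and 0 of the 24 with the smallest p. Read depth is unknown, so no limit of detection per gene can be given.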

Other observations

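Lists not described above held few members at an unadjusted p under 0.05. Of 10 genes of MHC class II presentation, by which immune cells show antigens, 8 were lower in HFD-STZ, with a median of -0.21, and of 16 acute phase and inflammation genes 12, with a median of -0.22. Without HFD-STZ replicate 7 these medians were -0.14 and -0.07, and without HFD replicate 4 -0.08 and -0.05. With all samples, 0 of either list were at p under 0.05 in limma. Circadian clock genes were lower in 16 of 19 cases, with a median of -0.06, the nearest to the threshold being Clock (-0.30 ± 0.14, unadjusted p = 0.0531, limma). The medians of 17 oxidative stress genes, 14 unfolded protein response genes and 14 immediate early genes were -0.03, 0.07 and 0.07, with 0 at p under 0.05 in each. Metallothionein Mt2, which binds zinc, differed by -0.59 ± 0.29 (unadjusted p = 0.0582, limma). The 11 skeletal muscle markers tested had a median of -0.11 and a mean per sample of 6.72 to 11.67 (median 9.62) in HFD-STZ and 6.96 to 14.60 (median 8.04) in HFD. Of 8 keratinocyte markers 3 could be tested, with a median of -0.24.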
